A study of Mus musculus with 4 samples.

Results

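The 54 genes described here are listed as nucleolar ribosome biogenesis factors, proteins that make and process ribosomal RNA and build the ribosomal subunits. The list also holds Pus7 and Pus1, which work mainly on transfer and messenger RNA. All 54 genes were chosen by name, with earlier results of these data known. A probe set is the group of probes that reports 1 transcript on the array. It was a member when the platform annotation gave it 1 gene symbol and that symbol was on the list. This found 104 of 45037 probe sets, for 53 of the 54 genes, out of 18193 genes measured in all, and Npm3 was not analysed here. The data came from 4 Affymetrix Mouse 430 2.0 arrays hybridized with RNA of CD4+CD8+ double-positive (DP) cells, the immature stage of T-cell development that carries both co-receptors. The 2 normal arrays held DP cells from the thymus of wild-type mice. The 2 tumour arrays held DP cells from peripheral tumours, labelled thymoma, that over-express Notch1-IC, the intracellular and constantly active form of the Notch1 receptor, and their genotype label reads T-ALL (T-cell acute lymphoblastic leukaemia). Both groups share the C57/BLACK6 background and carry the same DP cell type label. The labels do not give the ages of the mice, the vector or promoter behind Notch1-IC, or how many animals stand behind each group. The p-values of limma's fit therefore cover the scatter among these 4 samples, possibly technical in origin. Tissue site (thymus or periphery) follows the groups, so site and transformation cannot be told apart.

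A ribosome is made in the nucleolus. RNA polymerase I copies the ribosomal DNA into a long precursor RNA. Small nucleolar ribonucleoproteins (snoRNPs) modify its nucleotides, and assembly factors cut and fold it into the small (40S) and large (60S) subunits. The small subunit processome is the large complex that handles the first steps of the small subunit, and the PeBoW complex (Pes1, Bop1 and Wdr12) acts in maturation of the large one. The transcription factor Myc is a known activator of many of these genes, and growing cells need more of their products than resting ones.

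Values are probe set intensities on a linear scale, and differences are tumour minus normal on the log2 scale, with the standard error (SE) of limma's fit for 2 arrays per group. Each gene is given by its brightest probe set by mean log2 over all 4 arrays, tumour arrays included. This choice can favour a probe set that is high in 1 group. The words "rose" and "fell" mean a Benjamini-Hochberg adjusted p below 0.05 over all 45037 probe sets. Levels are not compared between genes, because probe sets differ in response. Between 51.0% and 59.0% of probe sets lay above the background level of their array, and all 53 member genes did on all 4 arrays, so no member was lost to a filter. The hybridization controls BioB, BioC and BioD, bacterial control sequences added at the hybridization step, lay 0.60 higher (log2) in the tumour arrays. Scaling the arrays to them moved the median difference of all genes from 0.09 to -0.51. Whether this scaling reflects the amount of RNA in the cells was not tested. Of 12 DP and T-lineage markers, 10 fell and 1 rose (Ptcra), whereas 11.7% of all genes fell and 16.3% rose. Cd4 read 799 and 778 on the normal arrays and 183 and 188 on the tumour arrays, and all 12 stayed above background on every array. Markers of other cells moved with the groups. Among 13 genes typical of macrophages or monocytes, 10 rose and 0 fell, with summed intensities of 127 to 176 in normal and 2281 to 2465 in tumour arrays. For neutrophils, 8 of 11 markers rose and 0 fell, with sums of 204 to 267 and of 2200.4 to 2239. On the normal arrays 3 and 7 of the 13 macrophage markers lay above background, against 12 and 12 on the tumour arrays. The part of these cells in the results below was not tested.

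Transcripts of the ribosome biogenesis factors were higher in the tumour cells as a rule. Of the 53 genes, 46 rose, 1 fell (Nop10) and 6 passed in neither direction, whereas 16.3% of all 18193 genes rose and 11.7% fell. The median difference was 1.02, a 2.03-fold higher level, against 0.09 over all genes. The lower and upper quartiles of the members were 0.68 and 1.59. The tumour and normal arrays did not overlap for any member: both tumour arrays lay above both normal arrays for 50 genes (33.7% of all genes) and below them for 3 (26.4% of all genes), which were Nop10, Wdr12 and Rrp8. A rise of at least 2-fold was called for 28 of the 53, against 8.33% of all genes. Calls are more frequent among genes with high signal. Among the 43 members whose log2 intensity averaged 7 or more, 38 rose and 1 fell, beside 30.6% and 26.9% of the 6364 genes that bright. Of the 43, 21 rose by at least 2-fold, beside 9.82% of those genes, and their median was 0.97 against 0.03.

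These counts depend on how the arrays are scaled and on the model of the variance. With the arrays scaled to the hybridization controls, 27 of the 53 genes rose and 4 fell, against 6.99% and 27.9% of all genes, and the median of the members was 0.42. Limma's default prior gives every probe set the same expected variance whatever its level. With it, 0 of the 53 passed, as did 0 of all 45037 probe sets. At an unadjusted p below 0.05 under that prior, 39 members were higher. The share of all genes at that threshold was not computed, so this count has no reference.

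**Figure D1:**
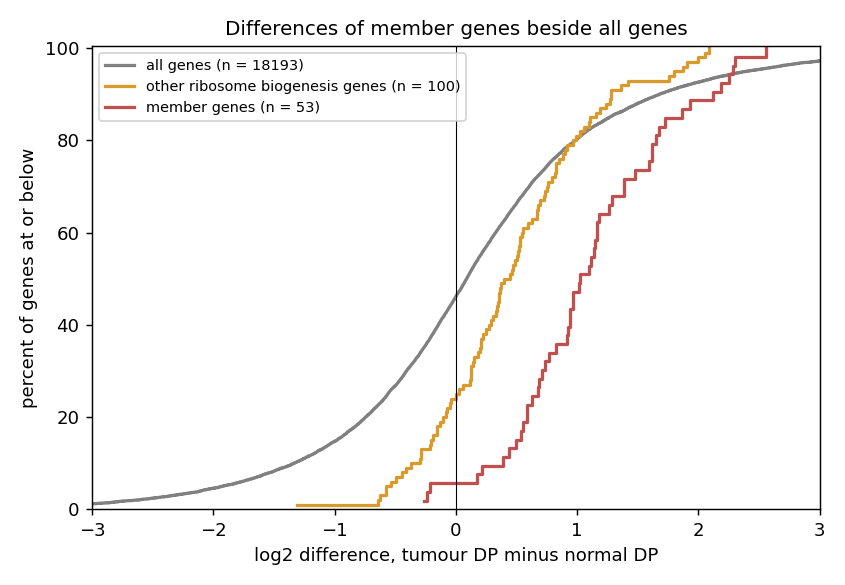
Cumulative share of genes (vertical axis, percent) by log2 difference between tumour and normal DP arrays (horizontal axis, drawn from -3 to 3, with all genes reaching beyond it), with the values scaled as deposited. The line of the 53 member genes has its median at 1.02, that of 100 other ribosome biogenesis genes at 0.42 and that of all 18193 genes at 0.09; with the arrays scaled to the hybridization controls these medians were 0.42, -0.18 and -0.51.

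Since the members moved largely in 1 direction, their promoters were searched for CACGTG, the E-box that dimers of Myc and its partner Max are known to bind. The letters read the same on both strands, so 1 search covers both. RefSeq promoter windows of GRCm38.p6, from 250 bases before to 50 bases after the transcript start, were found for 45 of the 53 genes. The window held CACGTG in 8 of the 45 (17.8%), in 22 of 89 other ribosome biogenesis genes (24.7%) and in 1479 of 14452 measured genes with a window (10.2%). Among all measured genes that rose, the share was 320 of 2402 (13.3%). The 8 stretches below are shown because they hold the letters searched for, which stand in capitals, and each is written from 5′ to 3′ on the strand of its gene.
Pus7, chr5:23783666-23783695, minus strand: ggcgcagcgccgCACGTGtgcgagcccggc
Mybbp1a, chr11:72441355-72441376, plus strand: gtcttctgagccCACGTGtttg
Utp20, chr10:88826765-88826789, minus strand: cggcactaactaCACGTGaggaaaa
Wdr43, chr17:71616220-71616249, plus strand: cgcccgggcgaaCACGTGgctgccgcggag
Nop2, chr6:125131811-125131840, plus strand: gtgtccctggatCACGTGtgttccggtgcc
Pus1, chr5:110780576-110780605, minus strand: tccgccttcgtgCACGTGgtcagcttcggg
Pes1, chr11:3963965-3963994, plus strand: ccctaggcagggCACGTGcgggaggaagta
Utp18, chr11:93885769-93885798, minus strand: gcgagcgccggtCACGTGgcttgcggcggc
The motif began 60 bases before the start in Nop2 and 20 before it in Utp18, and between base 3 and base 41 of the transcript in the other 6. All 8 genes rose with the values as deposited, with differences of 0.69 to 2.56 and a median of 1.42. The 37 members without the letters in the window ranged from -0.27 to 2.30, with a median of 1.01. Among members with a window, the letters stood in 8 of the 39 that rose (20.5%) and in 0 of the 6 that did not rise. Whether the letters go with the difference was not tested. A match is not a measured binding site. Myc itself read 146 and 159 on the normal arrays and 1097 and 993 on the tumour arrays, a 6.84-fold difference (2.77 ± 0.12 on the log2 scale, limma adjusted p = 4.38e-07), and Max differed by 0.28 ± 0.10 (adjusted p = 0.0859).

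All 5 genes of RNA polymerase I transcription rose, with a median difference of 1.93. Mybbp1a, a nucleolar protein that binds Myb, read 556 and 561 on the normal arrays and 2580.5 and 2489.9 on the tumour arrays. The tumour arrays lay close together and far above both normal arrays, with a difference of 2.18 ± 0.08 (limma adjusted p = 2.2e-07), or 4.54-fold. Polr1b, another large subunit of the polymerase, rose by 2.12 ± 0.21, from 39.8 and 41.7 to 183 and 171. The largest subunit, Polr1a, rose by 1.93 ± 0.24, although its normal arrays differed more from each other than those of any other member, at 77.6 and 47.4 against 242 and 222 in the tumour. Another Polr1a probe set rose from 25.1 and 30.7 to 131 and 97.6. Of its 3 remaining probe sets none passed, and 2 of these lay at or below background on all 4 arrays. Polr1c, which polymerases I and III share, rose by 1.39 ± 0.10. Tcof1, the treacle protein that assists transcription of ribosomal DNA, had the smallest difference of the 5. It read 294 and 349.8 on the normal arrays and 609 and 599 on the tumour arrays, a 1.88-fold rise (adjusted p = 0.000399). With scaling to the hybridization controls, 4 of the 5 still passed and Tcof1 (0.31) did not.

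**Figure D2:**
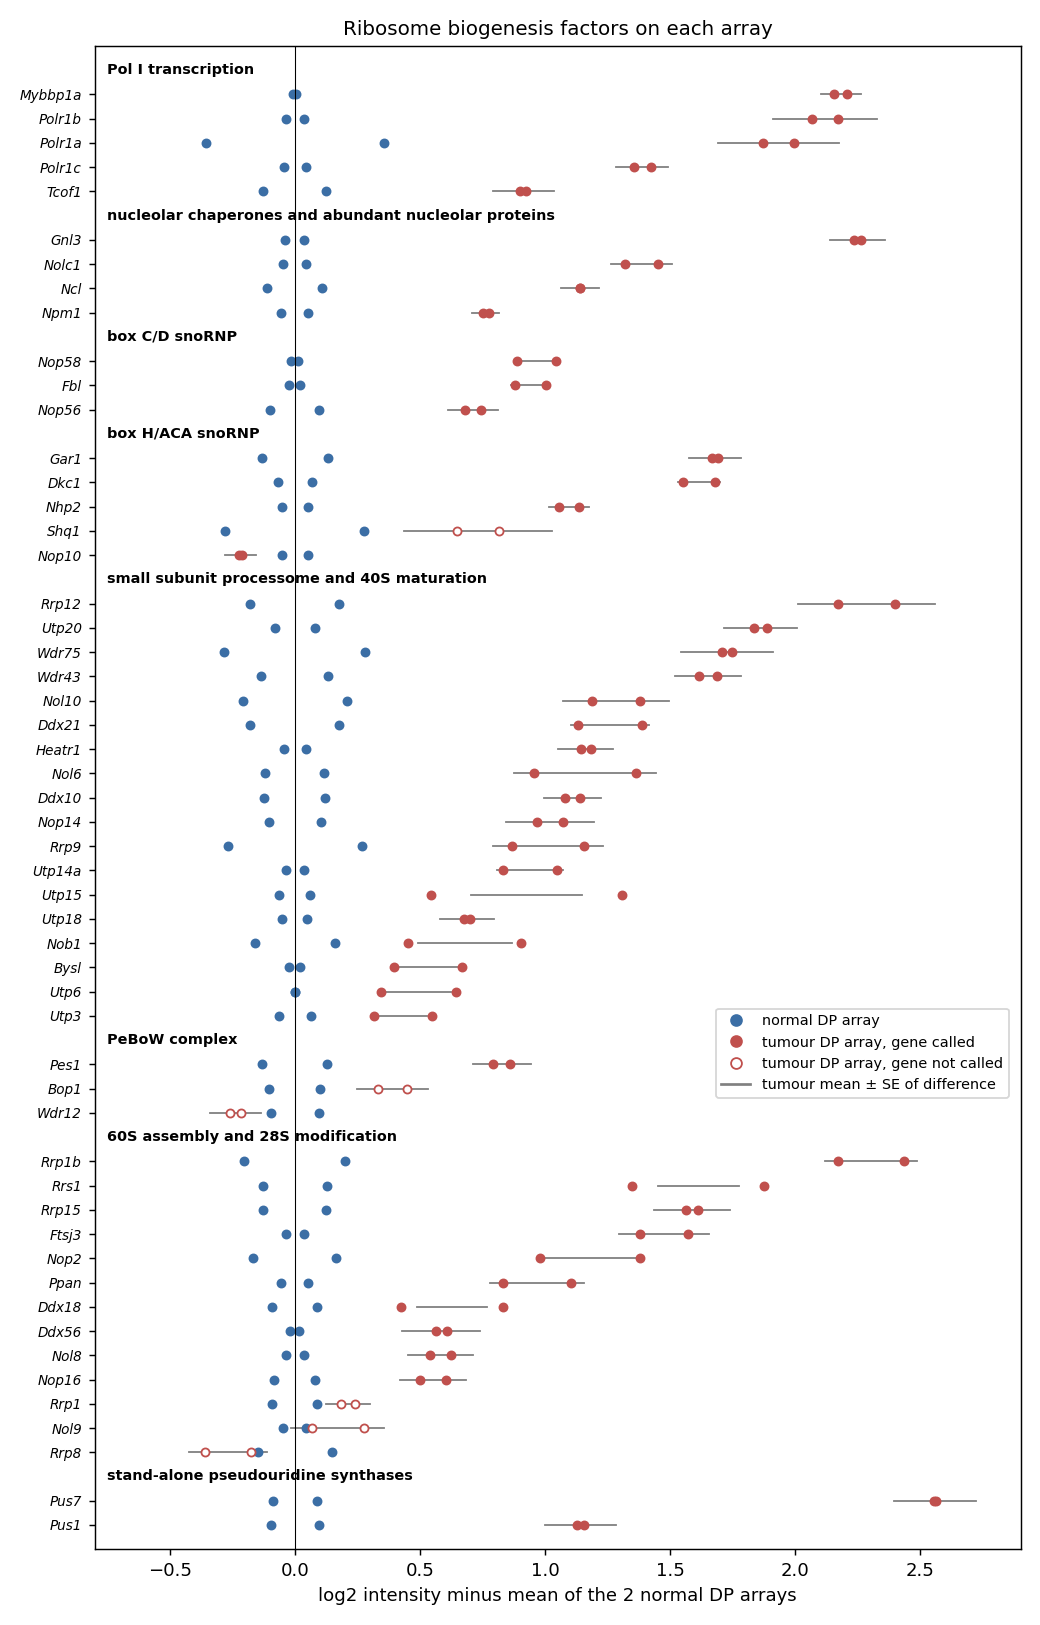
Log2 intensity of each member gene on each array, minus the mean of its 2 normal arrays (horizontal axis), with genes in rows by role and values scaled as deposited. Blue points are normal arrays and red points tumour arrays (open where the gene was not called), and grey bars span the tumour mean ± SE of the difference. Red points lie to the right of the blue ones for 50 of 53 genes, and to the left for Nop10, Wdr12 and Rrp8.

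The 4 measured genes of abundant nucleolar proteins and chaperones rose too, with a median of 1.26. Gnl3 (nucleostemin), a GTP-binding nucleolar protein of stem and cancer cells, read 184 and 193 on the normal arrays and 905 and 886 on the tumour arrays. That is a 4.75-fold difference (2.25 ± 0.11, limma adjusted p = 8.13e-07), with replicates much closer to each other than to the other group. Nolc1 (Nopp140), a chaperone of snoRNPs, rose by 1.39 ± 0.12, and all 3 of its probe sets rose. Ncl (nucleolin), which binds the precursor RNA, went from 3009 and 3501 to 7146 and 7155, a 2.20-fold rise (1.14 ± 0.07). Of its 5 probe sets, 4 rose, by 0.33 to 1.64, and the fifth reached the background level on 1 normal array alone. Npm1 (nucleophosmin), a histone and ribosome chaperone, had the smallest difference of this group, at 5852 and 6301 on the normal arrays and 10231 and 10387 on the tumour arrays. Its rise of 0.76 ± 0.05 (1.70-fold) came with a limma adjusted p = 7.92e-06, and the other probe set gave 0.78 ± 0.07. Npm1 differed by 0.16 with the hybridization control scaling and no longer passed, and the other 3 did.

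Box C/D snoRNPs guide the methylation of ribosomal RNA, and their 3 measured core proteins rose by similar amounts. Fbl (fibrillarin), the methyltransferase, read 1286 and 1326 on the normal arrays and 2617 and 2406 on the tumour arrays, a 1.92-fold difference (0.94 ± 0.08, limma adjusted p = 1.89e-05). Nop58 read 810.0 and 793 on the normal arrays and 1654 and 1485 on the tumour arrays, a difference of 0.97 ± 0.09. Both tumour arrays of either gene stood above both normal arrays, and Fbl's other probe set also rose (0.75 ± 0.09). Nop56, the paralogue of Nop58, read 693 and 605 on the normal arrays and 1037 and 1084 on the tumour arrays (0.71 ± 0.10, adjusted p = 0.000589). The Nop56 probe set is of the _s_at class, whose probes can match further transcripts. So are the probe sets that represent Fbl, Gar1, Nhp2, Polr1c and Tcof1, and Gar1 has no other. The second probe set of Nop56 read 524 and 525 against 506 and 499 and did not pass (-0.06 ± 0.10, limma adjusted p = 0.742). With hybridization control scaling, Fbl and Nop58 passed and Nop56 (0.11) did not.

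Box H/ACA snoRNPs guide pseudouridylation and share their core proteins with telomerase. Of 5 members, 3 rose, 1 fell and 1 did not pass. Dkc1 (dyskerin), the catalytic subunit, read 986 and 1083 on the normal arrays and 3026 and 3312 on the tumour arrays, a 3.06-fold rise (1.61 ± 0.08, limma adjusted p = 1.16e-06), and all 3 of its probe sets rose. Gar1 rose by 1.68 ± 0.10, from 573 and 478 to 1661 and 1690.1, and Nhp2 by 1.10 ± 0.08, from 1123 and 1044 to 2381 and 2254. Nop10, the smallest protein of the same core, went the other way, at 4305 and 4009.8 on the normal arrays and 3559 and 3591 on the tumour arrays. Both tumour arrays lay below both normal arrays, and the fall of 0.22 (SE 0.06) was small (1.16-fold lower, adjusted p = 0.0334). The second Nop10 probe set fell as well, from 1725 and 1844 to 1294 and 1430.2 (log2 difference -0.39 ± 0.08, adjusted p = 0.00752). The call of Nop10 on the first probe set ended without normal replicate 1, without tumour replicate 1 and without tumour replicate 2, where the difference was -0.17, -0.21 and -0.22. With hybridization control scaling its difference was -0.82 (adjusted p = 7.01e-06), and 3 of the 5 members rose and 1 fell, as with the deposited values. Shq1, which helps assemble dyskerin, read 49.8 and 33.9 on the normal arrays and 72.3 and 64.4 on the tumour arrays. Its tumour arrays were higher, but the gap between them and the normal arrays was within what limma's fit allows at this low signal (0.73 ± 0.30, adjusted p = 0.119).

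The small subunit processome and the factors of small subunit maturation form the largest group, and all 18 rose, with a median of 1.07 and a range of 0.43 to 2.28. Rrp12, a factor of subunit export, changed most. It read 22.5 and 28.8 on the normal arrays and 115 and 134 on the tumour arrays, a 4.87-fold difference (2.28 ± 0.27, limma adjusted p = 0.000212), with a wide error because the signal was low. Utp20 rose by 1.86 ± 0.15, Wdr75 by 1.73 ± 0.18 and Wdr43 by 1.65 ± 0.13. These are processome components, and Wdr43 and Wdr75 sit in the subcomplex that engages the start of the precursor RNA. The second Wdr43 probe set gave 2.28 ± 0.15, whereas that of Wdr75 read 54.7 and 50.2 against 57.2 and 60.6 and did not pass (0.17 ± 0.26). Nol10, Nol6, Nop14 and Rrp9, further processome proteins, rose by 1.01 to 1.28. The RNA helicases Ddx21 and Ddx10 rose by 1.26 ± 0.16 and 1.11 ± 0.11. Ddx21's second probe set went from 75.9 and 82.8 to 284 and 315. That of Ddx10 read 66.25 and 66.45 against 63.6 and 103.76, so the groups overlapped on it, and it did not pass (0.29 ± 0.28). Utp14a rose by 0.94 ± 0.13 and Utp15 by 0.93 ± 0.22, and Utp15 had the widest gap between tumour arrays of all members, at 426 and 251 against 179.9 and 165 in the normal. The second probe set of Utp15 read 176 and 224 against 255 and 269 and did not pass (0.40 ± 0.16). That of Utp14a, with low signal, did not pass either (-0.88 ± 0.55).

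Smaller rises closed this group. Utp18 differed by 0.69 ± 0.11, Nob1, the nuclease that makes the final cut of the small subunit RNA, by 0.68 ± 0.19, Bysl (bystin) by 0.53 ± 0.13 and Utp6 by 0.49 ± 0.13. The second probe set of Bysl did not pass (0.17 ± 0.19), and 2 of the 3 probe sets of Utp6 rose. Utp3 had the smallest difference, at 1362 and 1245 on the normal arrays and 1906 and 1624 on the tumour arrays (0.43 ± 0.10, adjusted p = 0.00896). Its tumour arrays were still both above both normal arrays. Under hybridization control scaling, 8 of the 18 passed and 0 fell, and the differences of Bysl, Utp6 and Utp3 turned slightly negative, at -0.07, -0.11 and -0.17. Heatr1, a processome scaffold protein, was the only member with probe sets called in both directions. The brightest read 279 and 263 on the normal arrays and 597 and 614 on the tumour arrays (1.16 ± 0.11, limma adjusted p = 4.89e-05). Another fell from 56.4 and 64.8 to 21.4 and 25.9 (-1.36 ± 0.33, adjusted p = 0.014), and the third, near background in the normal arrays, did not pass (1.26 ± 0.43, adjusted p = 0.0658).

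The large subunit factors were less uniform. In the PeBoW complex, 1 of 3 members rose. Pes1 read 479 and 400.1 on the normal arrays and 796 and 759 on the tumour arrays, a 1.77-fold difference (0.83 ± 0.12, limma adjusted p = 0.000564). Bop1 read 194 and 223 on the normal arrays and 284 and 262 on the tumour arrays, with both tumour arrays above both normal ones, and did not pass (0.39 ± 0.14, adjusted p = 0.0813). Wdr12 read 694 and 794 on the normal arrays and 639.9 and 619.7 on the tumour arrays, with both tumour arrays below both normal ones, and did not pass either (-0.24 ± 0.10, adjusted p = 0.149). Other probe sets of the complex disagreed with these: the second of Bop1 fell, from 117 and 99.2 to 63.8 and 52.9 (-0.89 ± 0.23, adjusted p = 0.0188). The second of Pes1 did not exceed the background level in either tumour sample and did not pass (adjusted p = 0.0758). For Wdr12, the second probe set gave 0.22 ± 0.16 (adjusted p = 0.4), and the third was called higher (adjusted p = 0.0495) but lay at or below background on all 4 arrays, so no fold is given. The median of the 3 genes was 0.39 as deposited and -0.21 with hybridization control scaling, where Wdr12 fell (-0.84) and Pes1 (0.23) did not pass.

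Of 13 other factors of large subunit assembly and of modification of its RNA, 10 rose and 3 did not pass, with a median of 0.63. Rrp1b, a paralogue of the assembly factor Rrp1, changed most in this group, at 89.9 and 67.9 on the normal arrays and 352 and 422 on the tumour arrays. That is a 4.93-fold rise (2.30 ± 0.19, limma adjusted p = 1.73e-05), and its 2 other probe sets rose by 1.75 and 2.21. Rrp1 itself read 1462 and 1289 on the normal arrays and 1624 and 1560.0 on the tumour arrays and did not pass (0.21 ± 0.09, adjusted p = 0.122), while its second probe set fell from 578 and 592 to 324 and 352 (-0.79 ± 0.11, adjusted p = 0.00052). No probe set of Rrp1 thus rose, and every probe set of Rrp1b did, with the values as deposited; the difference between the paralogues was not tested. Rrs1, which brings the 5S ribonucleoprotein into the subunit, rose by 1.61 ± 0.16, with its tumour arrays apart at 1302 and 1877 against 468 and 558. That probe set is of the less specific _x_at class, and the second gave 1.25 ± 0.10. Rrp15 rose by 1.59 ± 0.15, and the RNA methyltransferases Ftsj3 and Nop2 rose by 1.48 ± 0.18 and 1.18 ± 0.18. Ppan rose by 0.97 ± 0.19.

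Rises below 2-fold were also found for the helicases Ddx18 (0.63 ± 0.14) and Ddx56 (0.59 ± 0.16) and for Nol8 (0.58 ± 0.13) and Nop16 (0.55 ± 0.13). The second probe set of Ddx18, well above background, read 632 and 628 against 603 and 647. The groups thus overlapped on it, and it did not pass (-0.01 ± 0.10, limma adjusted p = 0.953). Nol9, a kinase that acts on precursor RNA ends, read 104 and 111 on the normal arrays and 130.2 and 113 on the tumour arrays (0.17 ± 0.19, adjusted p = 0.6), and none of its 5 probe sets passed. Rrp8, a methyltransferase of the large subunit RNA, read 273 and 223 on the normal arrays and 193 and 219 on the tumour arrays and did not pass (-0.27 ± 0.16, adjusted p = 0.293), although both tumour arrays lay just below both normal ones. With hybridization control scaling, 5 of the 13 rose, and Rrp1 (-0.39) and Rrp8 (-0.87) fell. Under it Nol9 was at -0.43 and did not pass, and Ddx56 (-0.02), Nol8 (-0.02) and Nop16 (-0.05) lay slightly below 0.

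Pus7 and Pus1 are pseudouridine synthases that work without a guide RNA, mainly on transfer and messenger RNA. Pus7 read 64.5 and 57.0 on the normal arrays and 356 and 358 on the tumour arrays, the largest difference of all members (2.56 ± 0.16, 5.90-fold, limma adjusted p = 4.38e-06). Pus1 read 161 and 141 on the normal arrays and 337 and 329.9 on the tumour arrays, a 2.21-fold rise (1.14 ± 0.14, adjusted p = 0.00026). For both, the 2 tumour arrays were nearly equal, and both passed under either scaling.

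**Figure D3:**
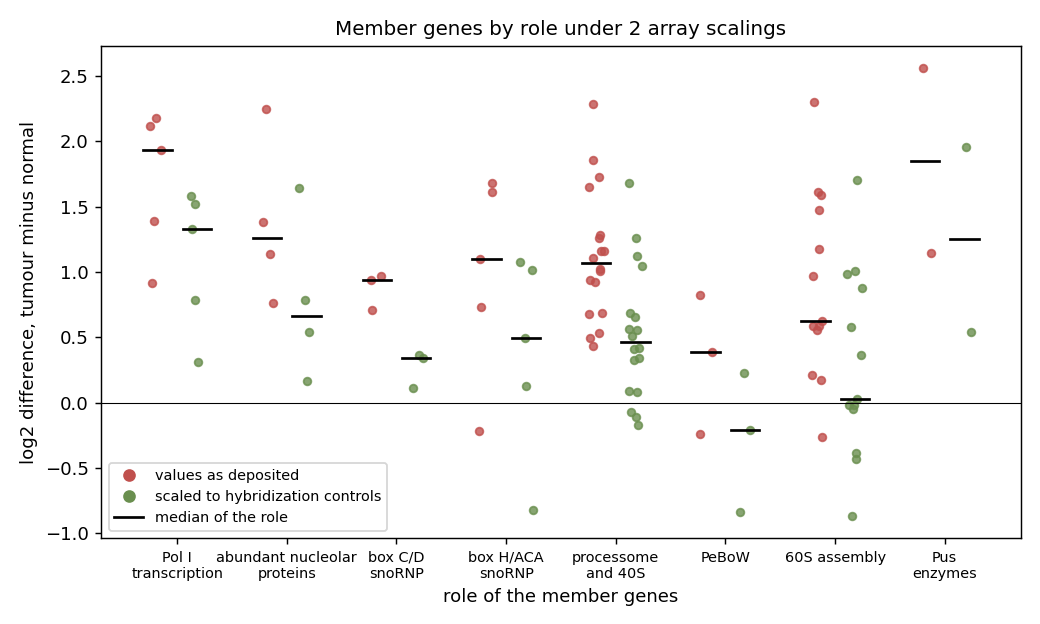
Log2 difference between tumour and normal DP arrays (vertical axis) for the 53 member genes by role (horizontal axis), with the values as deposited (red) and with the arrays scaled to the hybridization controls (green); black bars are medians. The median of RNA polymerase I genes was 1.93 and 1.33 under the 2 scalings, that of the 60S assembly group 0.63 and 0.03, and that of PeBoW 0.39 and -0.21.

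Where a gene had several probe sets, they did not always move alike. Of 33 such genes, 11 had every probe set higher, and 17 had some higher and the rest not called. Heatr1 alone (1 gene) had calls in both directions, 3 (Bop1, Nop10 and Rrp1) had lower calls alone and 1 (Nol9) had no call. The 17 include Wdr12, whose only probe set called higher lay at or below background on all 4 arrays. Over all 104 member probe sets, 68 rose, that one of Wdr12 among them, and 5 fell, beside 11.3% and 11.5% of all probe sets. On the normal arrays alone, a probe set other than the one that represents the gene was brighter for Ddx18, Nol6, Utp15, Tcof1 and Rrp1b. That probe set did not pass for Ddx18 (-0.01), Nol6 (-0.50) and Utp15 (0.40), and it rose for Tcof1 (0.63) and Rrp1b (1.75). Besides those that represent a gene, 38 probe sets lay above background on all 4 arrays, and of these 21 rose, 4 fell and 13 did not pass. In the same arrays the ratio of the probe sets at the 3′ and 5′ ends of beta-actin was 1.20 and 1.28 in normal and 2.46 and 2.53 in tumour samples. For Gapdh the ratios were 0.897 and 0.912 against 1.84 and 1.85. The part of these ratios in the unlike probe sets was not tested.

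**Figure D4:**
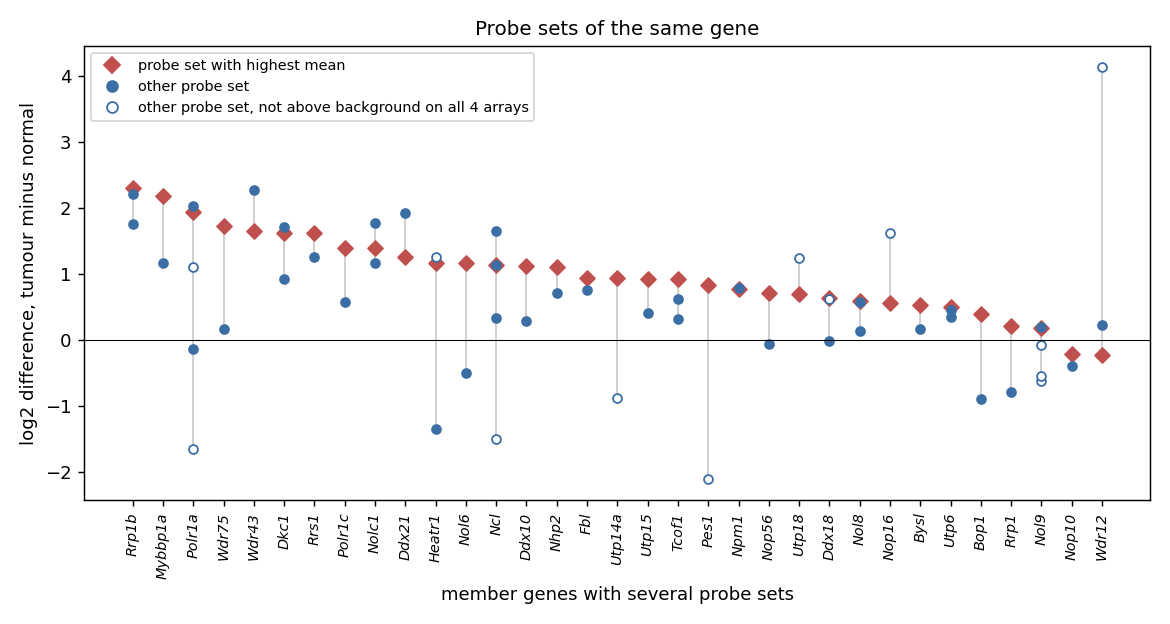
Log2 difference between tumour and normal DP arrays (vertical axis, values as deposited) for every probe set of the 33 member genes that have several (horizontal axis, ordered by the probe set with the highest mean). Diamonds are the probe sets that represent the gene and circles the others, open where not above background on all 4 arrays. Heatr1, Bop1, Nop10 and Rrp1 each have a filled circle below 0 that was called lower.

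Replicate arrays were close for most members. The median gap between the normal arrays was 0.18 (log2) and between the tumour arrays 0.11, and the widest gaps were 0.71 (Polr1a, normal) and 0.76 (Utp15, tumour). Of the 46 genes that rose, 35 also passed without each array in turn. All 27 that rose with hybridization control scaling are among these 35.

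Other genes of ribosome production, listed by name from general knowledge of the pathway and with earlier results of these data known, were also measured. Of 100 such genes, 49 rose and 11 fell, with a median difference of 0.42, beside 16.3% and 11.7% of all genes and a median of 0.09. Of the 100, 86 had a mean log2 intensity of 7 or more, and among all 6364 genes that bright 30.6% rose and 26.9% fell. The share of the list that fell was thus near that of all genes and below that of bright genes. Adding to the polymerase, Cd3eap, a subunit of polymerase I, rose by 1.90 ± 0.26. Mdn1 (midasin), the large ATPase that strips factors from the large subunit, rose by 2.09 ± 0.22. Tsr1, a factor of late small subunit maturation, rose from 246 and 294 to 1107 and 1123 (2.05 ± 0.12). Naf1, which helps assemble box H/ACA particles, went from 294 and 269 to 1129 and 1121 (2.00 ± 0.10), and Nat10, the RNA acetyltransferase, from 60.2 and 58.6 to 238 and 198 (1.87 ± 0.19). The tumour arrays stood above the normal ones for all 5. Among the falls, Rpf1, a large subunit assembly factor, was furthest down, from 561 and 572 to 219.9 and 236 (log2 difference -1.31 ± 0.12). Exosc10, a nuclease of the RNA exosome, differed by -0.64 ± 0.12, Dnttip2 by -0.62 ± 0.13, Taf1b, a subunit of the polymerase I selectivity factor, by -0.58 ± 0.14 and Nop9 by -0.57 ± 0.12. Hybridization control scaling lowers every difference by the same 0.60. With it, 18 of the list rose and 35 fell, with a median of -0.18, beside 6.99% and 27.9% of all genes and a median of -0.51.

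Proliferation genes did not move as 1 group in these arrays. Of 15 measured, 5 rose and 4 fell, with a median of 0.10, beside 16.3% and 11.7% of all genes. A mean log2 intensity of 7 or more was found for 14 of the 15, and 30.6% of all genes that bright rose and 26.9% fell. Calls in both directions were thus about as frequent as among bright genes in general. Mki67, the Ki-67 antigen, rose from 1064 and 998 to 4319 and 3752 (1.97 ± 0.09), whereas Pcna, the sliding clamp of DNA replication, read 10373 and 9522 on the normal arrays and 6989 and 6807 on the tumour arrays and fell by 0.53, a 1.44-fold lower level. Their relation to the ribosome biogenesis genes was not tested.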

How the data were processed

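RNA of 4 samples was labelled with biotin from 100 ng of total RNA and put on Affymetrix Mouse 430 2.0 arrays, as the labels' protocols and the series' design text state. The authors deposited 1 linear intensity per probe set and array, from 0.08 to 19270, with nearly the same distribution on every array. Per the submitters' processing notes the listed tool is RMA. Its version and settings and the genome build were not given in the sources used here. Because RMA output seldom reaches this far down on a linear scale, the summarisation behind the values is not settled, and low intensities and their log2 differences are uncertain for that reason. Such normalization hides a shift common to all genes. Arrays were grouped by their titles, since the sample type label calls all 4 tumour. Log2 was taken with no offset or filter, and all 45037 probe sets that are not controls (64 left out) were fitted with limma 3.58.1 in R 4.3.3 with the trend and robust prior, 2 residual and 7.27 (median) prior degrees of freedom. That prior was chosen, with earlier results known, because array variance generally depends on level. Replicate SD (log2), measured afterwards, was 1.30 in the dimmest 25% and 0.096 in the brightest 25% of probe sets. Gene names come from the platform annotation (34945 with 1 symbol, 932 with several, 9160 with none), and all 53 member symbols matched RefSeq of GRCm38.p6. Promoter sequences are RefSeq's. Background was the highest of 27 control probe sets for bacterial genes without signal. The code was tested on simulated data.

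Values are given for 53 of the 54 members, and Npm3 was not analysed here. Values on every array were to be given for the largest and smallest difference in each role, for members lower or not called, for those with probe sets called both ways, and for Myc, and differences for the 5 largest rises and up to 5 falls of other ribosome biogenesis genes. Further members and probe sets given in full were chosen after their values were seen. Members, lists, roles and the prior were chosen with earlier results of these data known. Of 5 B cell markers 0 rose and 1 fell, and of 4 erythroid markers 1 rose and 0 fell. Of 10 Myc network genes 2 rose and 1 fell. Over all genes, 16.3% rose and 11.7% fell. Scan dates were not used here, and any batch that runs along with the groups cannot be told apart from these.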

Additional observations from a re-analysis of the deposited data

Results flagged for a closer look

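The array also carries control probe sets for 18S ribosomal RNA, the RNA of the small subunit, which no comparison above uses. They read higher in both tumour samples than in both normal samples. The probe set at the 5′ end read 2495 and 2359 on the normal arrays and 8553 and 8636 on the tumour arrays, a 3.54-fold difference. The middle one read 779 and 693 against 2406 and 2473, a 3.32-fold difference, and the one at the 3′ end 753 and 716 against 2082 and 1859, or 2.68-fold. On the log2 scale the differences were 1.42 to 1.82 as deposited and 0.82 to 1.22 with hybridization control scaling. Mature ribosomal RNA carries no poly(A) tail, and how much of this signal reflects its amount in the cells was not tested.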

How the results depend on the processing

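Subtracting array medians, a repeat of quantile normalization, dropping the 30% of probe sets with the lowest mean and a fit over genes each left 46 member genes higher and 1 lower. Of all genes tested, 16.4% to 22.8% were higher in these fits. Log2 of the value plus 16 gave the same member counts and a member median of 0.93, with 16.6% of all genes higher. With limma's default prior, 0 probe sets, member genes or other ribosome biogenesis genes passed in either direction. At an adjusted p below 0.01, 39 members were higher and 0 lower, with 2 member probe sets and 6 other ribosome biogenesis genes lower. At that threshold 11.9% of all genes were higher, and 1535 of 18193 were lower. Hybridization control scaling gave 2074 higher and 11539 lower probe sets in all, 38 and 11 of the members, 27 higher and 4 lower member genes, and 18 and 35 other ribosome biogenesis genes. The medians were then 0.42 (members), -0.18 (others) and -0.51 (all genes), and 9 differences turned: Bop1 (-0.21) and Nol9 (-0.43), not called under either scaling, and Bysl (-0.069), Ddx56 (-0.016), Nol8 (-0.017), Nop16 (-0.048), Rrp1 (-0.39), Utp3 (-0.17) and Utp6 (-0.11). Averaging the probe sets of each gene left 37 members higher and 2 lower (median 0.95), with 10.3% of all genes higher. Of the 37, 36 also rose in the main results, and Wdr12 (1.37, in part from a probe set at background) was added. Averaging left 30 other ribosome biogenesis genes higher. Besides Wdr12, it turned Pes1 (-0.64, in part from a probe set at or below background in the tumour arrays) and Rrp1 (-0.29). The uncalled Bop1 (-0.25) and Nol9 (-0.18) turned as well. With probe sets of the _at class alone, 3267 probe sets in all were higher and 3 member probe sets lower, the median was 0.97 over 47 members, and Ddx18 (-0.013) and Nop56 (-0.063) turned, since another probe set then stood for them. Leaving out 1 array at a time gave 35 to 41 higher and 0 to 1 lower member genes, a median of 1.02 to 1.08, 52 to 58 higher and 2 to 4 lower member probe sets, and 37 to 42 higher and 5 to 6 lower other genes. Over all probe sets it gave 3325 to 3983 higher and 3184 to 4386 lower. A lone array of a group is then assumed to vary like the others. With the replicate block, 48 member genes were higher and 1 lower, with Bop1 and Rrp1 added, beside 19.3% of all genes higher. The labels do not say that replicate numbers pair samples, and same-numbered arrays deviated together with r = 0.25 across 6364 genes. Apart from what an alternative's construction shows, the cause was not tested. Only 2 arrays per group limit the precision, and an exact permutation of 2 against 2 cannot give a p below 0.333.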
